A study of Homo sapiens with 12 samples.

Results

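The genes described here are 35 direct targets of the transcription factor p53, listed by name, each read from its brightest probe set over all 12 arrays. Of these, 32 had a probe set of their own among the 19775 genes with such a probe set on the array, and 29 were bright enough to test among 13784 tested genes. The only probe set of BBC3 also names microRNA genes, so no value was read for it, and 2 further members were not analysed here. TP53INP1, SPATA18 and SERPINB5 were not tested because their signals, 0.817 to 20.4, lay below the median of the array on every array.

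p53 is kept scarce in unstressed cells by its own target MDM2, a ubiquitin ligase that marks it for destruction. DNA damage, such as the pyrimidine dimers made by UV light, activates kinases that free p53 from MDM2 and let it bind pairs of decamers in its target genes. Those targets feed back on p53, start apoptosis, stop the cell cycle, or adjust metabolism and redox balance, and the members are described in that order.

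The cells were SW13, an established adrenal cortical carcinoma line described as lacking BRG1 protein, the ATPase of the SWI/SNF chromatin remodeler. SW13+BRG1 cells (SW13+pREP7+BRG1) are a stable line carrying a BRG1 plasmid and SW13+vector cells (SW13+pREP7) a stable line carrying the empty plasmid. Each line was irradiated with UV at 10 J/m2 or mock treated and collected after 6 h, which gave 4 groups of 3 Affymetrix U133 Plus 2.0 arrays. Each group holds 3 arrays of 1 line, so the tests measure the spread within a line, and an effect of BRG1 cannot be told apart from other differences between these lines. RNA from whole cultures also cannot tell a lower level in every cell from fewer cells with the transcript.

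Values are MAS signals, the brightness that the Affymetrix software gives each probe set, on arrays whose medians were 21.1 to 25.3. A gene was called when limma gave an adjusted p under 0.05 and a fold over 2, and "rose", "fell", "higher" and "lower" are used of a gene only for such a call, "up" and "down" for a change at an unadjusted p under 0.05. Arrays correlated at 0.894 to 0.949 within groups (12 pairs) and 0.763 to 0.915 between groups (54 pairs). Mock-treated SW13+vector array 3 stood apart, with a GAPDH 3′ to 5′ ratio of 1.64 against 0.932 to 1.25 on the other 11 arrays, and each call of a member that depends on 1 array is given below with its value without that array. SMARCA4, the gene of BRG1, does not check the labels, which were kept because the study showed BRG1 protein by Western blot. Its brightest probe set was lower in SW13+BRG1 cells, with log2 differences of -1.22 with UV and -1.28 without (limma, adjusted p = 0.0399 and 0.0355), and of its 7 tested probe sets 1 was called higher in UV-treated cells and none in mock-treated cells. Of 11 adrenal cortex markers with a probe set, 4 were tested. FDX1 was above the median on all 12 arrays, MC2R on 7, MRAP on 6 and CYP17A1, a steroid synthesis gene, on 3. INHA reached it on 2 arrays and 6 markers on 1 or none. Among those 6, the steroid synthesis genes STAR, CYP11B2 and HSD3B2 were below it on every array.

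The promoters of 27 members were in the RefSeq table (GRCh38.p14), and the stretch from 250 bases before to 50 bases after each start was searched on both strands for the p53 response element. The search asked for 2 adjacent p53 decamers with the invariant C and G of each and at most 2 differences from the consensus in all, and the decamers could not overlap. Such an element stood in 3 members, 11.1% of 27, against 98 of 27305 genes, 0.359%. The 3 are shown because each belongs to a member whose values are described below, with the element in capitals, 5′ to 3′ along the gene. All 3 lie on the plus strand, and their distances are bases before 1 start of the gene. The RefSeq table holds 4 starts for MDM2, 3 for FAS and 1 for AEN. For MDM2 and FAS, whether the start used is the nearest or the main one was not tested.
MDM2, chr12:68808913-68808952, 94 bases before the start: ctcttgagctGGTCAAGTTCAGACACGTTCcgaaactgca
FAS, chr10:88991299-88991338, 122 bases before the start: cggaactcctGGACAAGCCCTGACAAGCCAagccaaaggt
AEN, chr15:88621296-88621335, 34 bases before the start: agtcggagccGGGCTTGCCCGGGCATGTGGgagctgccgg
A single decamer with no difference was found in 4 members, AEN, FAS, PLK2 and SESN1, which is 14.8% of 27 against 8.06% of all genes. These matches describe letters in a short window only, and no binding of p53 was measured in these data. The members were listed as direct p53 targets, so their shares beside those of all genes are no independent test of the list.

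More of the 29 tested members fell than rose after UV in both lines, as did more of all tested genes, and PMAIP1 was the only member that rose. In SW13+BRG1 cells 1 of 29 members rose (3.45%), where 0.609% of all tested genes rose, and 4 fell (13.8%), where 6.57% of all tested genes fell. In SW13+vector cells no member rose, where 0.66% of all genes did, and 3 fell (10.3%), where 4.16% of all genes fell. The median log2 change of the members was 0.04 in SW13+BRG1 cells and -0.05 with the vector, close to the medians of 0.03 in each line over all tested genes. At an unadjusted p under 0.05 with no fold required, 5 of 29 members were up and 12 down in SW13+BRG1 cells, where 13.9% of all genes were up and 17.2% down. In SW13+vector cells 4 were up and 9 down by that rule, where 12.7% and 14.8% of all genes were.

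**Figure D1:**
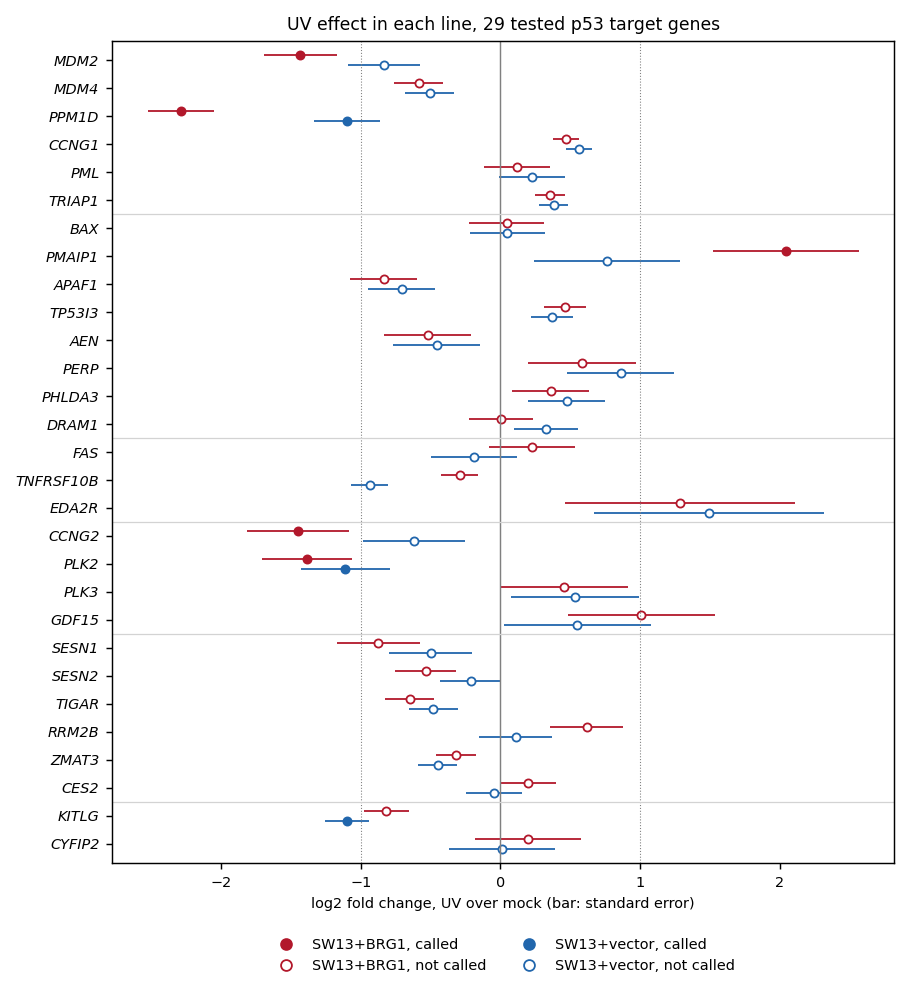
UV effect on each of the 29 tested p53 target genes in SW13+BRG1 cells (red) and SW13+vector cells (blue), as the log2 fold change of UV over mock with its standard error. Filled points are called, dotted lines mark a fold of 2, and grey lines separate the roles in the order of the text. PMAIP1 at 2.04 is the only filled point to the right, and PPM1D lies farthest left at -2.29 in SW13+BRG1 cells.

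Among the genes that feed back on p53, 2 of 6 fell in SW13+BRG1 cells, where 6.57% of all genes did. In SW13+vector cells 1 of 6 fell, where 4.16% of all genes did. PPM1D, a phosphatase that removes activating phosphates from p53 and the damage kinases, had signals of 57.9, 58.6 and 31.1 in UV-treated SW13+BRG1 cells, against 246.7, 244.2 and 204.4 in mock-treated ones. In SW13+vector cells its signals were 134.7, 135.9 and 134.0 after UV, against 313, 309.8 and 248.7 after mock treatment. The UV and mock arrays did not overlap in either line. PPM1D fell by 2.29 in SW13+BRG1 cells (log2, standard error 0.24, limma adjusted p = 4.37e-05). It fell by 1.10 in SW13+vector cells (standard error 0.24, adjusted p = 0.00812). PPM1D has 2 tested probe sets and the brighter alone was called. With the mean of both the change was -1.00 (adjusted p = 0.119) in SW13+BRG1 cells.

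MDM2, the ubiquitin ligase of p53, had signals of 119.1, 92.8 and 67.1 in UV-treated SW13+BRG1 cells, against 232.7, 284.2 and 220.2 in mock-treated ones. All UV arrays lay below all mock arrays, and MDM2 fell by 1.43 (standard error 0.26, adjusted p = 0.00194). The SW13+vector signals were 128.2, 256.9 and 158.8 after UV, against 286.2, 320.0 and 323.5 after mock treatment, again without overlap. That change was -0.83 (standard error 0.26, adjusted p = 0.0488), under the fold of 2, and it was called without UV-treated SW13+vector array 2 (-1.12). MDM2 has 7 tested probe sets, of which the brightest was the only one called. The mean over all of them changed by -0.48 in SW13+BRG1 cells with adjusted p = 0.417.

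The other 4 genes of this role were not called after UV. MDM4, the MDM2 relative that masks the activation domain of p53, averaged 239.9 ± 14.1 after UV and 361 ± 33.4 after mock treatment in SW13+BRG1 cells (SD, n = 3), a change of -0.59 (adjusted p = 0.0299). CCNG1, cyclin G1, which recruits a phosphatase to MDM2, passed the adjusted p in both lines with changes under the fold of 2, 0.47 in SW13+BRG1 cells (standard error 0.09, adjusted p = 0.00351) and 0.56 in SW13+vector cells (standard error 0.09, adjusted p = 0.002). TRIAP1, a small mitochondrial protein that restrains apoptosis, did so as well at 0.36 (adjusted p = 0.0315) and 0.38 (adjusted p = 0.031), though neither gene passed after scaling each array to its hybridization controls, bacterial transcripts added to every sample before it was put on the array. So scaled, CCNG1 changed by 0.08 and 0.30 and TRIAP1 by -0.04 and 0.12 (adjusted p = 0.763, 0.173, 0.901 and 0.661). PML, the scaffold of the nuclear bodies that hold p53 modifiers, changed by 0.12 and 0.23 (adjusted p = 0.799 and 0.595).

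PMAIP1, the BH3-only protein NOXA that blocks MCL1 at mitochondria, was the member that rose. Its signals were 1267, 1136 and 718 in UV-treated SW13+BRG1 cells, against 270.0, 347.9 and 157.1 in mock-treated ones. SW13+vector cells gave signals of 15.4, 20.7 and 17.6 after UV, against 28.1, 8.97 and 4.56 after mock treatment. The UV arrays lay above the mock arrays in SW13+BRG1 cells, while in SW13+vector cells the ranges overlapped, and 1 of those 6 signals was above the median of its array. PMAIP1 rose by 2.04 in SW13+BRG1 cells (standard error 0.52, adjusted p = 0.0143) and changed by 0.76 in SW13+vector cells (standard error 0.52, adjusted p = 0.389). The call was lost when any 1 of 3 arrays was left out. It gave adjusted p = 0.0531 without mock-treated SW13+BRG1 array 3 (change 1.72), 0.0552 without UV-treated array 1 (1.88) and 0.0508 without UV-treated array 2 (1.96). In SW13+vector cells PMAIP1 was called, at 1.48 (adjusted p = 0.0364), without mock-treated array 1. Both of its probe sets were tested, and 1 was called after UV.

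**Figure D2:**
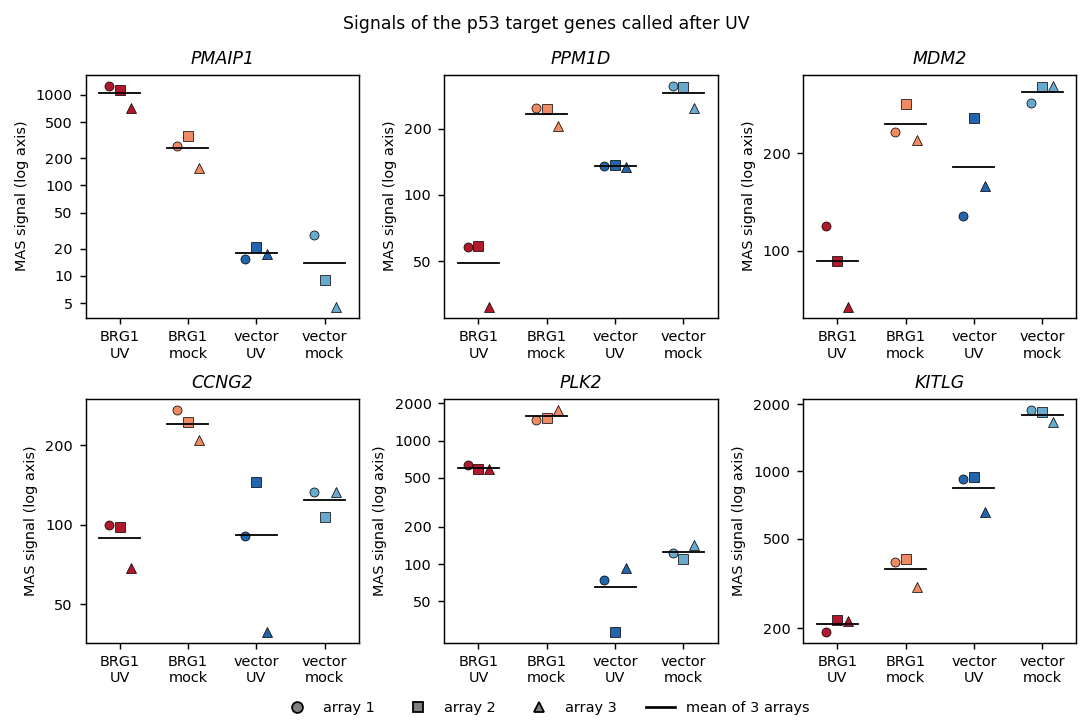
MAS signals (log axis) on each array for the 6 p53 target genes called after UV in at least 1 line. Symbols mark the array number, and black bars are means of 3 arrays in UV and mock-treated SW13+BRG1 cells and UV and mock-treated SW13+vector cells. PMAIP1 reads 718 to 1267 in UV-treated SW13+BRG1 cells and 4.56 to 28.1 in all SW13+vector cells, while PPM1D is lower on every UV array than on every mock array of its line.

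The remaining 7 tested apoptosis members were not called after UV. BAX, the pore-forming protein of the outer mitochondrial membrane, changed by 0.04 in SW13+BRG1 cells and 0.05 with the vector (standard error 0.27, adjusted p = 0.941 and 0.933). APAF1, the scaffold of the apoptosome, changed by -0.83 (adjusted p = 0.0255) and -0.71 (adjusted p = 0.0666). TP53I3, an oxidoreductase that raises reactive oxygen, averaged 792 ± 57.2 after UV and 580.0 ± 94.4 after mock treatment in SW13+BRG1 cells (SD, n = 3), a change of 0.46 (adjusted p = 0.0481) that was 0.07 with the hybridization controls (adjusted p = 0.833). The other changes lay between -0.52 for AEN, an exonuclease of apoptotic cells, in SW13+BRG1 cells and 0.86 for PERP, a tetraspan membrane protein, in SW13+vector cells.

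No death receptor member was called after UV. TNFRSF10B, a receptor for the death ligand TRAIL, read 589, 504 and 480.3 in UV-treated SW13+BRG1 cells, against 679, 664 and 582 in mock-treated ones, and the ranges overlapped. In SW13+vector cells it read 239.8, 289.2 and 250.8 after UV, against 487.8, 475 and 526 after mock treatment, with no overlap. The changes were -0.29 (standard error 0.13, adjusted p = 0.147) and -0.94 (standard error 0.13, adjusted p = 0.000728), and only the fold kept the second from a call, which it reached without UV-treated SW13+vector array 2 (-1.02). FAS, the receptor for Fas ligand, changed by 0.23 and -0.19 (adjusted p = 0.688 and 0.76). EDA2R, a receptor for an ectodysplasin isoform, was above the median on 3 arrays only, and its changes of 1.28 and 1.49 had a standard error of 0.83.

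Among growth arrest genes, CCNG2 fell in SW13+BRG1 cells and PLK2 in both lines. PLK2, a stress-induced polo-like kinase, read 639, 585 and 589 in UV-treated SW13+BRG1 cells, against 1457, 1536 and 1759 in mock-treated ones. With the empty vector it read 73.8, 28.4 and 92.4 after UV, against 122.1, 110.8 and 144.0 after mock treatment. No UV array overlapped the mock arrays of its line. PLK2 fell by 1.39 in SW13+BRG1 cells (standard error 0.32, adjusted p = 0.0083), and that call held without any single array. It fell by 1.11 in SW13+vector cells (standard error 0.32, adjusted p = 0.0362), a call that was lost without any of 8 of the 12 arrays. Among these, the change was -1.13 without mock-treated SW13+vector array 1, -1.20 without array 2 and -1.01 without array 3, and -0.60 without UV-treated SW13+vector array 2, whose 28.4 is the lowest signal. Leaving out mock or UV-treated SW13+BRG1 array 1 or 2 left the change at -1.11, with adjusted p of 0.0506 to 0.0534.

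CCNG2, cyclin G2, an unusual cyclin that slows the cell cycle, read 100.2, 98.4 and 68.9 in UV-treated SW13+BRG1 cells, against 270.5, 243.8 and 209.2 in mock-treated ones, with no overlap. It read 90.4, 145.1 and 39.5 in UV-treated SW13+vector cells, against 132.4, 106.5 and 132.6 in mock-treated ones, where the ranges overlapped. The changes were -1.45 (standard error 0.37, adjusted p = 0.0134) and -0.62 (standard error 0.37, adjusted p = 0.31). The call in SW13+BRG1 cells was lost without mock-treated array 1 (-1.36, adjusted p = 0.0562) or UV-treated array 3 (-1.27, adjusted p = 0.0569), and 1 of 4 tested probe sets of CCNG2 was called. PLK3, a polo-like kinase, and GDF15, a secreted TGF-β relative, were dim, with changes of 0.46 to 1.01 and adjusted p of 0.217 to 0.575.

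None of the 6 tested metabolic members was called after UV. TIGAR, which lowers fructose-2,6-bisphosphate and so favours the pentose phosphate pathway, had the smallest adjusted p, with 289.9 ± 37.4 after UV and 456 ± 71.9 after mock treatment in SW13+BRG1 cells (SD, n = 3) and a change of -0.65 (adjusted p = 0.0191). SESN1 and SESN2, the sestrins that restrain mTORC1, changed by -0.87 and -0.53 in SW13+BRG1 cells (adjusted p = 0.0571 and 0.109), and SESN1 was called there without UV-treated array 1 (-1.13). RRM2B, the p53-inducible subunit of ribonucleotide reductase, changed by 0.62 there (adjusted p = 0.122). ZMAT3, an RNA-binding protein, changed by -0.32 and -0.45 in SW13+BRG1 and SW13+vector cells (adjusted p = 0.143 and 0.0504), and CES2, a carboxylesterase, by 0.20 and -0.05.

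KITLG, stem cell factor, the ligand of the KIT receptor, fell in SW13+vector cells. It read 193.0, 217.3 and 214.0 in UV-treated SW13+BRG1 cells, against 394, 406 and 305.7 in mock-treated ones. With the empty vector it read 927, 948 and 662 after UV, against 1874, 1838 and 1669 after mock treatment. No UV array overlapped the mock arrays of its line. KITLG changed by -0.82 in SW13+BRG1 cells (standard error 0.16, adjusted p = 0.00283), under the fold of 2. With the vector it fell by 1.10 (standard error 0.16, adjusted p = 0.000848). Without UV-treated SW13+vector array 3 the change in SW13+vector cells was -0.93 (adjusted p = 0.00338) and no longer passed the fold. Of 3 tested probe sets, 1 was called.

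The UV effects of the members had a Pearson r of 0.87 and a Spearman rho of 0.91 between SW13+BRG1 and SW13+vector cells over the 29 genes, against 0.51 and 0.55 over all 13784 tested genes. These points share no array but do share the array processing and the experiment numbers, and genes are not independent replicates. The sign was the same in both lines for 27 of 29 members, 93.1%, where it was the same for 74.6% of all genes. No member passed the test of the difference between the UV effects, the interaction, in either direction after adjustment with limma, where 0.029% of all genes passed as higher and 0.0653% as lower. At an unadjusted p under 0.05, 1 of 29 members had a positive interaction and 1 a negative one, where 1.73% and 3.75% of all genes did. TNFRSF10B had an interaction of 0.64 (95% interval 0.24 to 1.04, adjusted p = 0.499), while its other tested probe sets gave -0.41 and -0.002. PPM1D had one of -1.19 (95% interval -1.91 to -0.47, adjusted p = 0.478), which was 0.08 with the mean of its probe sets. The interval of PMAIP1 ran from -0.31 to 2.87 (adjusted p = 0.977) and that of MDM2 from -1.39 to 0.20 (adjusted p = 0.999), so a difference of over 2-fold is within both.

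The lines themselves differed in 10 of the 29 members with UV and in 7 without. In UV-treated cells 7 members were higher in SW13+BRG1 cells (24.1%), where 9.85% of all genes were, and 3 were lower (10.3%), where 6.86% were. In mock-treated cells 6 were higher (20.7%), where 9.38% of all genes were, and 1 was lower (3.45%), where 5.27% were. The median log2 difference of the members was 0.15 in UV-treated and 0.18 in mock-treated cells, against -0.02 and 0.00 over all genes. PMAIP1, PERP and FAS lay at or above the array median on all 6 SW13+BRG1 arrays. They did so on only 1, 3 and 4 of the 6 SW13+vector arrays. The filter asked for 3 of 12 arrays, so PMAIP1 alone passed it only through the line in which it was called higher. PERP and FAS would have passed on the SW13+vector arrays alone. Among the 23 members above the median on all 12 arrays, 4 were called higher in UV-treated and 3 in mock-treated cells, where 7.94% and 7.14% of the 9179 genes at this level were.

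**Figure D3:**
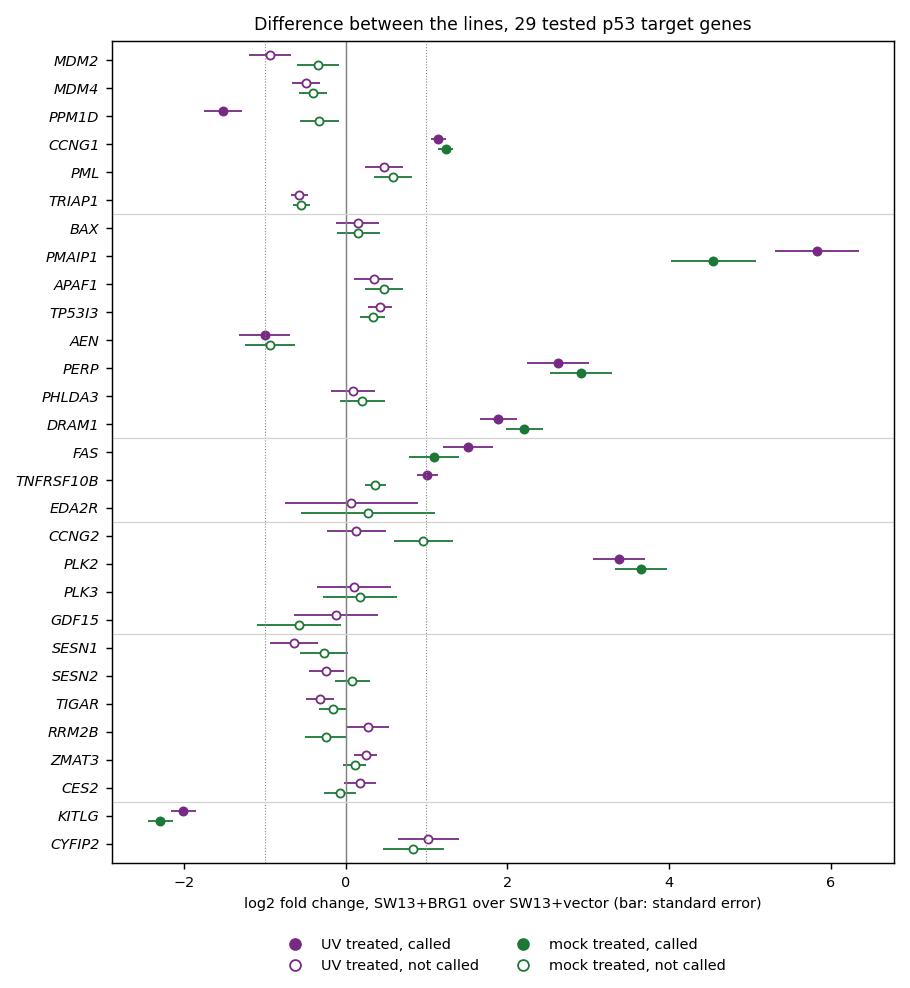
Difference between the lines for each of the 29 tested p53 target genes, as the log2 fold change of SW13+BRG1 over SW13+vector with its standard error, in UV-treated cells (purple) and mock-treated cells (green). Filled points are called, dotted lines mark a fold of 2, and grey lines separate the roles. PMAIP1 (5.83 in UV-treated and 4.55 in mock-treated cells) and PLK2 (3.38 and 3.66) lie farthest right, and KITLG (-2.01 and -2.29) farthest left.

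On the signals given above PMAIP1 was higher in SW13+BRG1 cells by 5.83 with UV (standard error 0.52, adjusted p = 2.35e-06) and by 4.55 without (standard error 0.52, adjusted p = 2.33e-05), and both of its probe sets were called. The SW13+vector signals are near or below the array median, so the size of this difference depends on values close to background. With 16 added to each signal it was 4.92 in UV-treated and 3.21 in mock-treated cells, where the difference of PLK2 was 3.04 and 3.50.

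PERP, a p53 effector of apoptosis that also builds desmosomes, read 188.6, 188.4 and 189.5 in UV-treated SW13+BRG1 cells, against 56.5, 21.0 and 23.8 in UV-treated SW13+vector cells. In mock-treated cells it read 117.5, 123.4 and 138.8 in SW13+BRG1 cells, against 20.6, 10.2 and 22.6 in SW13+vector cells. The lines did not overlap under either treatment, and PERP was higher by 2.63 with UV and 2.91 without (standard error 0.39, adjusted p = 0.000159 and 8.25e-05). It has 3 tested probe sets, and 2 of them were called under each treatment. The dimmer ones differed by 1.57 and -0.64 with UV and by 1.64 and 0.52 without. DRAM1, a lysosomal membrane protein of p53-driven autophagy, read 206.6, 217.2 and 194.2 in UV-treated SW13+BRG1 cells, against 60.2, 60.9 and 46.6 in UV-treated SW13+vector cells. Without UV it read 189.9, 207.9 and 219.2 in SW13+BRG1 cells, against 42.8, 34.2 and 59.4 in SW13+vector cells. DRAM1 was higher by 1.89 with UV and 2.21 without (standard error 0.23, adjusted p = 3.08e-05 and 8.47e-06), and UV changed it by 0.00 in SW13+BRG1 cells.

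AEN, whose promoter element is shown above, read 104.1, 80.0 and 56.1 in UV-treated SW13+BRG1 cells, against 160.8, 125.2 and 186.6 in UV-treated SW13+vector cells. In mock-treated cells it read 103.1, 82.0 and 163.6 in SW13+BRG1 cells, against 169.9, 192.6 and 296.9 in SW13+vector cells. The lines did not overlap under either treatment. The differences were -1.00 (standard error 0.31, adjusted p = 0.0249) with UV, which was called, and -0.94 (adjusted p = 0.0378) without, which was under the fold of 2. The call lies at the threshold and was lost without UV-treated SW13+vector array 1 (-0.98) or 3 (-0.87), or UV-treated SW13+BRG1 array 2 (-1.02) or 3 (-0.77). In mock-treated cells AEN was called without SW13+vector array 1 (-1.10) or SW13+BRG1 array 3 (-1.21).

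**Figure D4:**
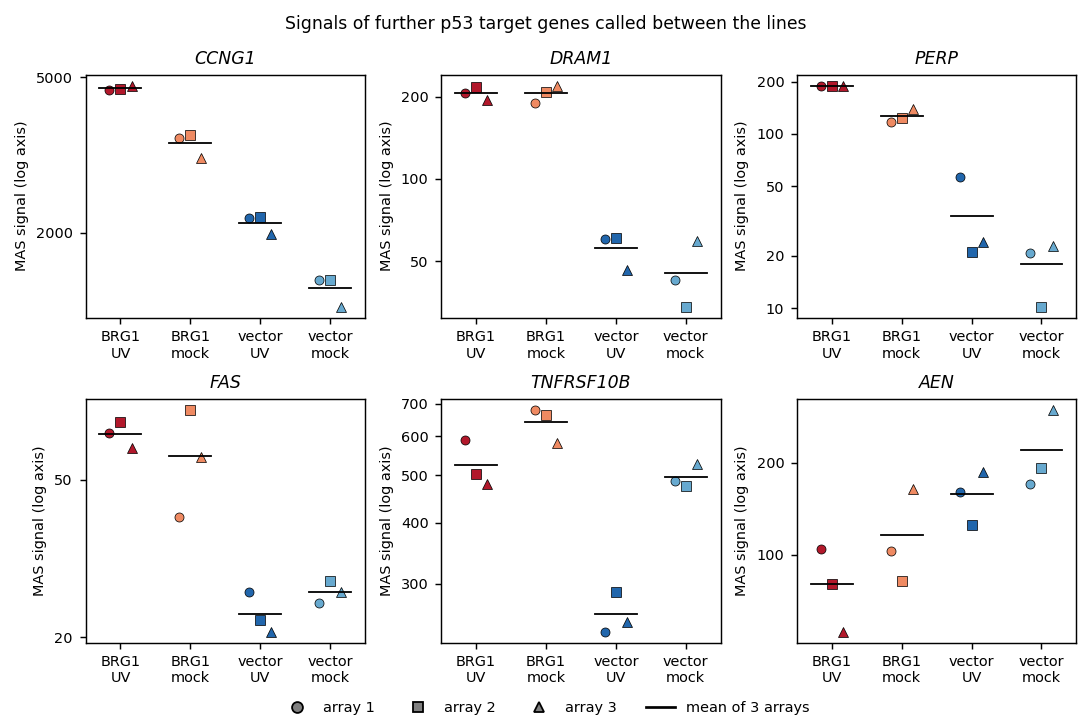
MAS signals (log axis) on each array for 6 further p53 target genes called between the lines under at least 1 treatment. Symbols mark the array number, and black bars are means of 3 arrays. CCNG1 steps down across UV and mock-treated SW13+BRG1 cells and then UV and mock-treated SW13+vector cells without overlap between neighbouring groups, and DRAM1 reads 189.9 to 219.2 on all SW13+BRG1 arrays and 34.2 to 60.9 on all SW13+vector arrays.

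Of the death receptors, FAS was higher in SW13+BRG1 cells under both treatments. It read 65.6, 69.8 and 60.2 in UV-treated SW13+BRG1 cells, against 26.0, 22.1 and 20.7 in irradiated SW13+vector cells. Without UV it read 40.2, 74.8 and 57.1 in SW13+BRG1 cells, against 24.5, 27.7 and 26.0 in SW13+vector cells. The lines did not overlap under either treatment. FAS was higher by 1.51 with UV (standard error 0.31, adjusted p = 0.00201), a call that held without any single array, and by 1.09 without UV (standard error 0.31, adjusted p = 0.0169). The call without UV was lost without SW13+BRG1 array 2 (0.88, adjusted p = 0.0954) or SW13+vector array 1 (1.05, adjusted p = 0.0505), and 1 of 4 tested probe sets was called there, against 2 of 4 with UV. TNFRSF10B was higher by 1.01 in UV-treated SW13+BRG1 cells (standard error 0.13, adjusted p = 5.94e-05), where its arrays did not overlap with those of SW13+vector cells, and differed by 0.37 in mock-treated cells (adjusted p = 0.0514). At this fold the call was lost without UV-treated SW13+vector array 1 (0.96) or 3 (0.99) or UV-treated SW13+BRG1 array 1 (0.92). Of its 3 tested probe sets 1 was called, and their mean differed by 0.33 (adjusted p = 0.199).

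PLK2 was higher in SW13+BRG1 cells by 3.38 with UV and by 3.66 without (standard error 0.32, adjusted p = 4.07e-06 and 1.95e-06). CCNG1 read 4637, 4656 and 4763 in UV-treated SW13+BRG1 cells, against 2187, 2193 and 1985 in UV-treated SW13+vector cells. In mock-treated cells it read 3504, 3556 and 3114 in SW13+BRG1 cells, against 1515, 1513 and 1294 in SW13+vector cells. It was higher by 1.14 with UV and by 1.24 without (standard error 0.09, adjusted p = 1.02e-06 and 5.11e-07). KITLG ran the other way and was lower in SW13+BRG1 cells, with differences of -2.01 with UV and -2.29 without (standard error 0.16, adjusted p = 6.55e-07 and 2.03e-07), with 2 of its 3 tested probe sets called. These calls of PLK2, CCNG1 and KITLG held without any single array.

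Of the feedback genes, PPM1D was lower in UV-treated SW13+BRG1 cells, with a difference of -1.51 (standard error 0.24, adjusted p = 0.000258) and one of -0.32 in mock-treated cells (adjusted p = 0.357). With the mean of its 2 probe sets the difference with UV was -0.98 (adjusted p = 0.0907), which is no call. MDM2 differed by -0.94 with UV (adjusted p = 0.0135) and -0.34 without (adjusted p = 0.381), and without UV-treated SW13+BRG1 array 1 or UV-treated SW13+vector array 1 or 3 it was called with UV, at -1.14, -1.16 and -1.00. TRIAP1 differed by -0.57 with UV and -0.55 without, past the adjusted p (0.00101 and 0.00159) but under the fold of 2. CYFIP2, a subunit of the WAVE complex that builds actin networks, averaged 191.1 ± 41.2 in UV-treated SW13+BRG1 cells and 94.3 ± 21.3 in UV-treated SW13+vector cells (SD, n = 3 each), a difference of 1.02 (adjusted p = 0.0557). It was called with UV, at 1.02, without mock-treated array 3 of either line and with the experiment number as a replicate block (adjusted p = 0.00139), and in mock-treated cells, at 1.32, without SW13+vector array 3. None of the 6 tested metabolic members was called, and their differences ran from -0.64 to 0.27.

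The probe sets of PML disagreed. The brightest, which stands for the gene, read 78.1, 102.2 and 114.5 in UV-treated SW13+BRG1 cells, against 74.5, 80.9 and 56.5 in UV-treated SW13+vector cells. In mock-treated cells it read 80.4, 101.9 and 87.3 in SW13+BRG1 cells, against 59.7, 64.4 and 55.1 in SW13+vector cells. Its differences of 0.48 and 0.58 were not called (adjusted p = 0.147 and 0.0827). Of the 9 tested probe sets, however, 3 were called higher in UV-treated and 5 in mock-treated SW13+BRG1 cells. The mean over the tested probe sets was higher by 1.55 with UV (adjusted p = 0.00337) and by 1.98 without (adjusted p = 0.000679). The SW13+vector signals of the 5 probe sets called in mock-treated cells were all below the array median there. Those of the 3 called in UV-treated cells were below it too, apart from a signal of 26.7 on array 3. The size of these differences, and of the means that include them, therefore rests on values near background. The probe sets called under both treatments reached the array median on 6 arrays each, all of SW13+BRG1 cells. These, and some of the others called in mock-treated cells, passed the filter only through the line in which they were higher. No share over all tested probe sets is given beside these counts, so they describe PML only. PML has many splice forms, and which form each probe set reads was not tested.

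**Figure D5:**
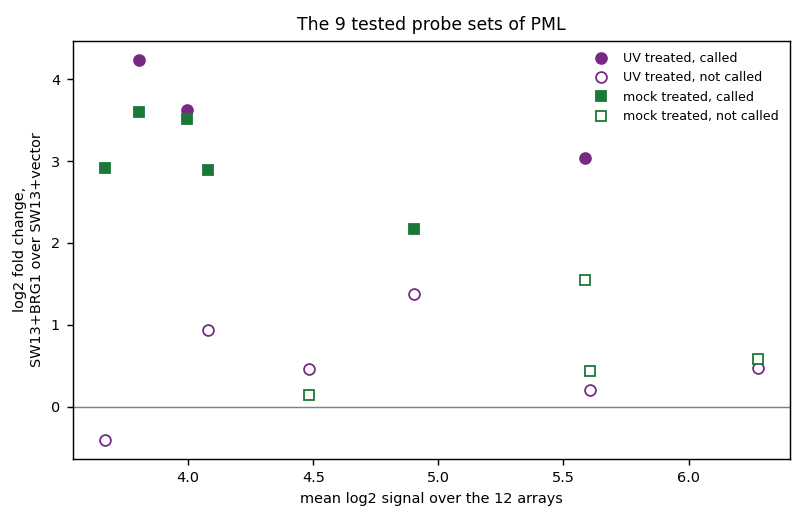
Log2 fold change of SW13+BRG1 over SW13+vector for each of the 9 tested probe sets of PML, in UV-treated cells (circles) and mock-treated cells (squares), against the mean log2 signal of the probe set over the 12 arrays. Filled symbols are called by limma with p adjusted over all tested probe sets, and 5 of the mock-treated and 3 of the UV-treated differences are filled, while the brightest probe set, farthest right, is not called.

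Targets of p53 outside the members were read from a further list of 32 genes, of which 28 were tested. After UV, 2 rose and 2 fell in SW13+BRG1 cells, and 1 rose and 3 fell in SW13+vector cells. Of all genes 0.609% rose and 6.57% fell in SW13+BRG1 cells, and 0.66% and 4.16% with the vector. CDKN1A, the kinase inhibitor p21, read 280.2, 290.6 and 392.4 in UV-treated SW13+BRG1 cells, against 111.3, 66.6 and 164.9 in mock-treated ones. It read 157.5, 122.2 and 85.9 in UV-treated SW13+vector cells, against 47.6, 47.7 and 78.5 in mock-treated ones, and the UV arrays lay above the mock arrays in both lines. CDKN1A rose by 1.57 in SW13+BRG1 cells (standard error 0.34, adjusted p = 0.00515), and its change of 1.07 in SW13+vector cells had adjusted p = 0.0502. GADD45A, a growth arrest protein, rose in SW13+BRG1 cells by 1.52 (adjusted p = 0.000764), while SUSD6, a membrane protein, fell in both lines, with changes of -1.41 in SW13+BRG1 cells and -1.99 with the vector. TNFAIP8, an inhibitor of apoptosis, fell with changes of -1.21 and -1.57, and TNFRSF10A, another TRAIL receptor, fell by 1.04 with the vector. CASP8, the initiator caspase of death receptors, was called as higher after UV in SW13+vector cells on signals of 5.75, 13.0 and 1.56, against 0.42, 0.651 and 2.11, all below the array median, and neither of its 2 tested probe sets passed with p adjusted over all probe sets.

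Between the lines 9 of these 28 genes were higher in UV-treated and 7 in mock-treated SW13+BRG1 cells, where 9.85% and 9.38% of all genes were. None was lower, where 6.86% and 5.27% of all genes were. THBS1, an inhibitor of angiogenesis, and IGFBP3, which binds insulin-like growth factors, were higher by 7.91 and 4.59 with UV and by 7.22 and 4.28 without. GADD45A was higher by 4.78 with UV and 3.61 without, and CASP8 by 5.23 and 8.28. The SW13+vector signals of THBS1 and CASP8 were all below the array median, so the size of these 2 differences rests on values near background. Both genes reached the median on 6 arrays, all of SW13+BRG1 cells. They therefore passed the filter only through the line in which they were called higher, and they are included in the counts above. Of the 48 calls on genes outside the members, SMARCA4 included, 10 rest on the only tested probe set of the gene, 15 on several that were all called alike and 23 on several of which some or all were not called alike with p adjusted over probe sets.

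Among genes that act on p53, those called after UV fell. Over all genes 84 rose and 905 fell in SW13+BRG1 cells, and 91 rose and 574 fell with the vector. Of 22 tested cofactors and modifiers, 4 fell in SW13+BRG1 cells, where 6.57% of all genes did, and 3 in SW13+vector cells, where 4.16% did, and none rose. EP300 and CREBBP, the acetyltransferases that coactivate p53, fell, with changes of -1.20 each in SW13+BRG1 cells and -1.35 and -1.16 in SW13+vector cells. JMY, a p300 partner, fell with changes of -1.61 and -1.65, and SIRT1, a deacetylase of p53, fell by 1.02 in SW13+BRG1 cells and changed by -0.71 with the vector (adjusted p = 0.0275). In each line 1 of 2 tested probe sets was called for EP300 and for JMY, and 1 of 3 for CREBBP. With the mean over probe sets EP300 was called in neither line, CREBBP not in SW13+vector cells and JMY not in SW13+BRG1 cells. Of 9 tested ubiquitin ligases and proteases of p53, 1 fell in each line, TRIM24, with changes of -1.21 and -1.39. Of 12 tested damage kinases, 1 fell in SW13+BRG1 cells, DYRK2, with a change of -1.45, and none in SW13+vector cells. TP73, the only tested gene of the p53 family, was dim, and its changes of 0.02 and 0.18 were not called.

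Between the lines, CDKN2A, which encodes the MDM2 inhibitor ARF beside the kinase inhibitor p16, was higher in SW13+BRG1 cells by 2.31 under each treatment (standard error 0.11, adjusted p = 6.2e-09 with UV and 6.9e-09 without). Its signals were 5993 to 6215 in UV-treated SW13+BRG1 cells against 1124 to 1440 in irradiated SW13+vector cells, and the array does not separate its products. HIPK2, a kinase that phosphorylates p53 in lethal damage, was higher by 1.93 with UV and 2.23 without. MAPK9, the stress kinase JNK2, was lower, with differences of -1.38 and -1.50, and CHEK1, the checkpoint kinase of stalled replication, was lower without UV, with one of -1.04, and differed by -0.99 with UV (adjusted p = 3.66e-05), just under the fold of 2. PPP1R13L, an inhibitor of p53, was higher by 1.54 and 1.42, while ING1, a cofactor, was lower, with differences of -1.24 and -1.10. RCHY1, a ubiquitin ligase of p53, was lower with UV, with a difference of -1.66, and differed by -0.92 without (adjusted p = 0.00638).

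Of the 48 calls on genes outside the members, 37 held without any single array and 11 were lost without at least 1. Those lost for the fold alone were TRIM24 after UV in SW13+BRG1 cells (-0.95 without UV-treated array 2), SIRT1 (-0.94 without mock-treated array 1, -1.00 without mock-treated array 2 and -0.90 without UV-treated array 3) and TNFRSF10A with the vector (-0.84 without mock-treated array 3 and -0.95 without UV-treated array 3). CHEK1 and ING1 in mock-treated cells were lost in the same way, at -0.98 and -0.99 without SW13+vector array 1. DYRK2 was lost without mock-treated SW13+BRG1 array 1 (-1.27, limma adjusted p = 0.0563). JMY was lost in SW13+BRG1 cells without mock-treated array 1 or 2 or UV-treated array 1 or 3 (adjusted p of 0.0511 to 0.0786), and with the vector without mock-treated array 1 or 2 or UV-treated array 3 (0.0559 to 0.0669), where the last gave a change of -1.06. CASP8 after UV with the vector was lost without any of 10 arrays, with changes of 1.84 to 2.55 (adjusted p of 0.0504 to 0.145). SMARCA4 was lost with UV without any of 5 arrays (-1.35 to -1.00) and in mock-treated cells without any of 3 (-1.13 to -0.81).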

How the data were processed

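The authors hybridized total RNA to Affymetrix U133 Plus 2.0 arrays, 1 array per sample and 3 per group, and deposited MAS signal intensities on a linear scale, scaled to a mean target intensity of 125. For MAS the version was not given in the sources used here. Signals were taken to log2 without further normalization. Of 54613 probe sets that are not controls, 32622 reached the array median on at least 3 of 12 arrays and entered the linear model. It had a mean for each of 4 groups, with eBayes variances trended on signal (limma 3.58.1, R 4.3.3). Each gene was read from its brightest probe set, leaving out probe sets that name several genes, and p was adjusted by the Benjamini-Hochberg method over 13784 genes. Calls on other probe sets of a gene used p adjusted over all tested probe sets. The fit was tested on simulated data. Each group spans 3 numbered experiments. Deviations of arrays with the same number correlated over 0.1 in every pair only for UV in SW13+vector cells (0.108, 0.102 and 0.275), so the numbers served as a block in an alternative. In each comparison the correlation was highest for the arrays numbered 3, at 0.201 to 0.293. Array 3 also had the lowest median signal within each group. Alternatives changed the filter, the scaling, the variance model, the test, the choice of probe set and the arrays used. The authors used a Welch test and a fold of 2, run here as an alternative on log2 signals.

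Members called in any comparison, and those the study names, are given on every array, the others by means or ranges. Of the further p53 lists, called genes with the largest changes are named, at most 4 per list and comparison. The members and lists were chosen with earlier results of these data known. Some genes of the lists are not reported here.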

Additional observations from a re-analysis of the deposited data

How the results depend on the processing

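No call of a member changed direction under any alternative or with any array left out. After UV in SW13+BRG1 cells, the 1 higher call became 0 when only members above the median on all 12 arrays were tested, since PMAIP1 is then left out, and 0 under the Welch test of the methods with adjustment. The 4 lower calls there became 1 when all probe sets of a gene were averaged, 1 under the adjusted Welch test and 8 after scaling to the 18 hybridization control probe sets. After UV in SW13+vector cells, the 3 lower calls became 1 with quantile normalization, 1 with the mean over probe sets, 0 under the adjusted Welch test and 5 with the hybridization controls. That last scaling, added after the data had been seen, moved the median UV effect of all genes to -0.36 in SW13+BRG1 cells and -0.23 with the vector, and left PMAIP1 as the 1 higher member. Between the lines with UV, the 7 higher calls became 4 with members above the median on all arrays, and the 3 lower calls became 1 under the adjusted Welch test. Without UV, the 6 higher calls became 3 with members above the median on all arrays and 2 under the adjusted Welch test, and the 1 lower call became 2 with quantile normalization. Without adjustment the Welch test of the methods gave 1 and 4 such calls for UV with BRG1, 0 and 2 with the vector, 8 and 3 between the lines with UV and 6 and 1 without.

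Leaving out 1 array at a time gave 0 to 1 higher and 3 to 5 lower calls after UV with BRG1, 0 to 1 and 2 to 4 with the vector, 6 to 8 and 2 to 4 between the lines with UV, 5 to 7 and 1 to 2 without, and 0 for the interaction in either direction. With the experiment number as a replicate block, UV called 1 member higher and 4 lower with BRG1, 0 and 3 with the vector, 8 and 3 between the lines with UV, 6 and 1 without and 0 for the interaction. The block added CYFIP2 with UV (1.02, adjusted p = 0.00139, limma) and changed no other call of a member. Without the 4 arrays numbered 3, chosen after the data had been seen, 1 member rose and 4 fell with BRG1, 0 and 2 with the vector, and 8 and 2 with UV and 7 and 1 without UV differed between the lines. There FAS without UV was 1.07 (adjusted p = 0.053), AEN with UV was -0.64, and KITLG after UV in SW13+vector cells was -0.98, none of them called. Arrays give no counts, and the dim signals of PMAIP1, PERP and FAS in SW13+vector cells, of EDA2R and of GDF15 limit the precision of their differences.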
